A study of Mus musculus with 45 samples.

Results

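Mouse embryonic fibroblasts (MEFs) with a doxycycline-inducible MyoD were followed from day 4 to day 10 of doxycycline given without other agents, the condition that turns these fibroblasts into multinucleated myotubes. The 12 libraries of this course, of 45 in the series, were chosen by their titles: 3 libraries each on days 4, 6, 8 and 10, numbered 1 to 3 on every day. The question was whether the myotubes matured further or were lost in these 6 days. All cells, the controls and the untreated MEFs included, carried the Pax7-nGFP transgene (a nuclear green fluorescent protein driven by the stem cell gene Pax7) on a mixed background labelled C57BL6;DBA2. The groups used here are 4, 6, 8 or 10 days of Dox alone, 4 to 10 days of Dox with the small molecules named F/R/C on the same days, and untreated MEFs. The labels call the first group myotubes and the second muscle fibers and progenitor cells. The promoter that drives MyoD, the number of embryos and whether replicates were separate cultures are not given in the sources used here. The p-values of the main test measure the spread left between libraries once differences between replicate numbers are taken out. Whether that spread is technical is therefore not known.

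MyoD (gene Myod1) binds E-boxes, short DNA motifs in the control regions of muscle genes, and starts a cascade in which myogenin (Myog) and MEF2 factors switch on the contractile genes. Differentiating muscle cells leave the cell cycle, fuse into myotubes and build sarcomeres from myosin, actin, titin and their regulators. During maturation, embryonic and cardiac forms of these proteins give way to adult ones, the fetal acetylcholine receptor subunit is replaced, and calcium handling and oxidative metabolism build up. Loss of myotubes in culture would instead remove all of their transcripts and leave those of the cells that never fused.

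The 12 libraries held 20.9 to 28.2 M reads assigned to genes. Levels are given as counts per 1e6 reads (CPM) of a library size scaled by the trimmed mean of M-values (TMM), and replicate numbers are used to pair libraries across days. In all 18 same-numbered pairs of libraries from different days, the deviations from the day means correlated (r 0.408 to 0.831), against -0.672 to 0.0784 for libraries with other numbers. Deviations from a day mean sum to 0, so positive values for the same number push those for other numbers down. Replicates 1 and 2 expressed Xist, at 240.1 to 361 CPM, and replicate 3 expressed the Y-linked genes in its place on every day. What is particular to replicate 3 therefore cannot be told apart from a difference in the sex or source of its cells. Replicate 2 stood apart in each group: it held the most muscle transcripts and the fewest fibroblast and proliferation transcripts already on day 4.

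The label myotubes was checked with 12 markers of differentiated muscle (the contractile genes Acta1, Actn2, Mylpf, Myl1, Myh3, Tnnt1, Tnnt3 and Ttn, the creatine kinase Ckm, the fusion gene Mymk, and the regulators Mef2c and Myog). On day 10 their mean TPM (a level corrected for transcript length and depth) was 76.8 to 580.4 times that in untreated MEFs, so these markers remained far above the fibroblast level. The 12 markers held 2.62%, 3.83% and 2.40% of the assigned reads of replicates 1, 2 and 3 on day 4. On day 10 they held 1.56%, 3.35% and 1.05%. The share was lower on day 10 in every same-numbered pair, least in replicate 2, and the groups overlapped through replicate 2. All 12 estimates were below 0 (median log2 fold change -0.80, against 0.03 over all genes tested). Of the 12, 2 passed the call rule used throughout, Myog and Actn2; none was called higher. In a bulk library, fewer myotubes and less muscle RNA per myotube cannot be told apart.

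Across all genes, day 10 differed from day 4 in 1348 of 15206 genes tested, 8.86%, with edgeR's quasi-likelihood test, the replicate number as a block, p adjusted by Benjamini and Hochberg's method under 0.05, and a change of at least 1 in either direction on the log2 scale. Of these, 795 (5.23% of genes tested) were higher and 553 (3.64%) lower on day 10. These shares are the background for the counts of called list members below. In 1314 of the 1348 the direction was the same in all 3 same-numbered pairs. The genes were called on these same pairs, so this count and the overlap counts that follow are no separate support. Every day 10 library lay above every day 4 library in 452 of the 795 and below in 401 of the 553, while over all genes tested 10.1% lay above and 12.2% below in this way. The calls rest on the pairing. Without the block 205 genes were called, 94 higher and 111 lower, and 204 of them were among the 1348. Of the 107 called genes named in the text, 28 were also called without the block and none changed direction.

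Of 16 myogenic regulators tested, 4 fell (Myod1, Myog, Pitx3 and Tead4) and 1 rose (Myf6), with a median log2 fold change of -0.29. Myod1 (chromosome 7, 46376474 to 46379099 in GRCm38), for which the deposited counts do not separate the transgene from the endogenous gene, stood at 2014, 4693 and 2264 CPM in replicates 1, 2 and 3 on day 4, 1372, 3056 and 1645 on day 6, 899, 2109 and 615 on day 8 and 685, 1871 and 570.4 on day 10. It was lower at every step in every replicate, and no day 10 library reached the lowest day 4 library although doxycycline was labelled as present throughout (log2 change -1.62 with SE 0.18, adjusted p 0.00037). Myog, the regulator that drives terminal differentiation, went from 1090.5, 1586 and 1252 CPM to 513, 1068 and 299 CPM (log2 change -1.24 with SE 0.26, adjusted p 0.0067). Its day 10 libraries all lay below those of day 4, with replicate 2 the highest of them. Pitx3 (log2 fold change -1.52, SE 0.17), a homeobox factor switched on during muscle differentiation, and Tead4 (-1.06, SE 0.17), a partner of the Yap and Taz coactivators, fell with adjusted p of 0.0004 and 0.0019 in edgeR's test. Mef2c, which amplifies the program, had an estimate of -0.82 (SE 0.25) and was not called, and Mef2a had -0.04 (SE 0.08). Without replicate 3 the estimates of Myog and Tead4 were -0.82 and -0.83 and neither was called, nor was Myog without replicate 1 (-1.31).

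Myf6 (MRF4), the regulator that rises late in muscle development and is the main one of adult fibers, moved the other way. On day 4 its libraries held at most 1 read each. It was detected in all 3 libraries on day 6, at 0.285, 0.224 and 0.0930 CPM, and reached 1.03, 1.97 and 1.53 CPM on day 10 (adjusted p 0.00042 in edgeR's test; no fold is given because day 4 is at the detection limit). Even then its level per transcript length was low: Myf6 made up 0.114, 0.0904 and 0.238% of the summed TPM of Myod1, Myog and Myf6 in the 3 day 10 libraries. Myf5 and Pax7, the early and stem cell regulators, were not tested, with at most 1 and 4 reads in any of the 12 libraries.

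Contractile genes fell most in absolute terms. The 8 genes with the largest drop in CPM among those called were Actc1, Myh8, Myod1, Myl4, Nes, Tnni1, Mybph and Actn2, and 6 of these are parts of the sarcomere. Actc1, the cardiac and fetal alpha-actin, went from 4702, 7038 and 5649 CPM on day 4 to 1815, 3431 and 1147 CPM on day 10 (log2 change -1.55 with SE 0.25, adjusted p 0.0022). The groups did not overlap. Myh8, the perinatal myosin heavy chain, first stood higher on day 6, at 4601, 9451 and 6958 CPM, than on day 4, at 3831, 8918 and 5554 CPM, in each replicate. It then dropped to 2631, 6163 and 2031 CPM on day 8 and 1854, 5051 and 1716 CPM on day 10 (log2 change -1.18 with SE 0.22, adjusted p 0.0043 against day 4), and its groups overlapped through replicate 2. Myh3, the embryonic heavy chain and the most abundant one per length, had 7250.0, 11406 and 7082 CPM on day 4 and 4624, 9876 and 2513 CPM on day 10. It was lower in all 3 pairs but did not pass the test (log2 fold change -0.76, SE 0.29, adjusted p 0.068).

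By family, 3 of 8 myosin heavy chains tested fell (Myh8, Myh4 and Myh6; median -0.79), as did 3 of 12 troponins, tropomyosins and actins (Actc1, Tnni1 and Tnnt2; median -0.64), and none in either family rose. Tnnt2, the cardiac troponin T that embryonic muscle also uses, fell from 1453, 2326 and 1524 CPM to 592, 1423 and 458 CPM (log2 change -1.23 with SE 0.19, adjusted p 0.0016). Tnni1, the slow troponin I, fell from 2096, 3712 and 2267 CPM to 1082, 2419 and 707 CPM (log2 change -1.07 with SE 0.21, adjusted p 0.0048). In both genes replicate 3 was lowest on day 10 and replicate 2 highest. Myh4, the heavy chain of fast glycolytic fibers, also fell (log2 change -1.25 with SE 0.17, adjusted p 0.001), from 147, 133 and 146 to 57.1, 72.7 and 50.6 CPM without overlap. The tropomyosins Tpm1, Tpm2 and Tpm3 had estimates of -0.14, -0.36 and 0.08, and none was called. Of 8 myosin light chains and their kinases, Myl4, the embryonic and atrial light chain, fell (log2 change -1.01 with SE 0.16, adjusted p 0.0021) and Myl2 rose.

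The drop was not even between replicates. The summed level of the troponins, tropomyosins and actins was 23514, 35204 and 24077 CPM on day 4 and 13438, 25656 and 9011 CPM on day 10. Replicate 3 was lowest on day 10 and replicate 2 stayed above every day 4 library of the other replicates. The median log2 change of this family within pairs 1, 2 and 3 was -0.67, -0.24 and -1.21. The 10 genes of the contractile lists called lower were all still called without replicate 2, but 5 were without replicate 1 and 3 without replicate 3. Those no longer called had log2 fold changes of -1.66 to -0.998 without replicate 1, and without replicate 3 of -0.99 to -0.78. Without the block 1 of the 10 was called, Myh4.

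**Figure D1:**
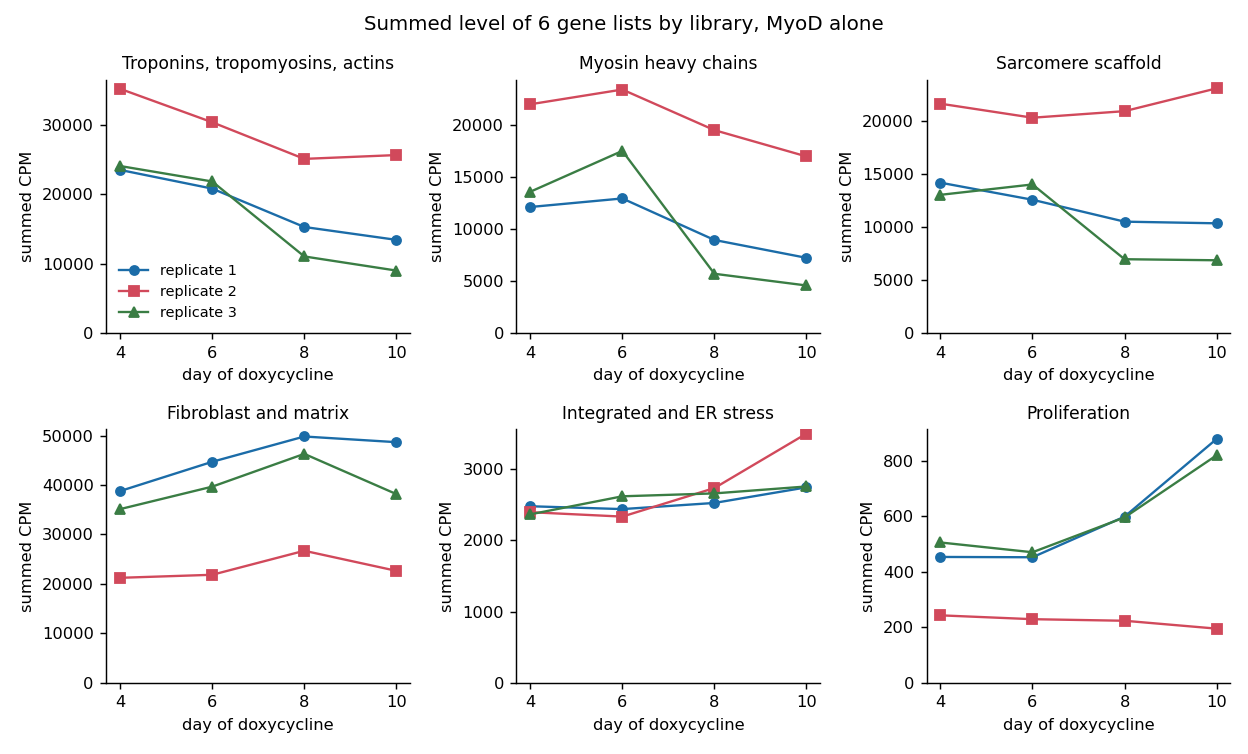
Summed CPM (vertical axis, from 0) of all genes of 6 lists in each of the 12 libraries against day of doxycycline, with 1 line per replicate number. From day 4 to day 10 the 3 contractile lists decline in replicates 1 and 3, from 23514 to 13438 CPM and from 24077 to 9011 CPM for troponins, tropomyosins and actins, while replicate 2 keeps a higher level. Proliferation is higher on day 10 in replicates 1 and 3 and not in replicate 2.

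**Figure D2:**
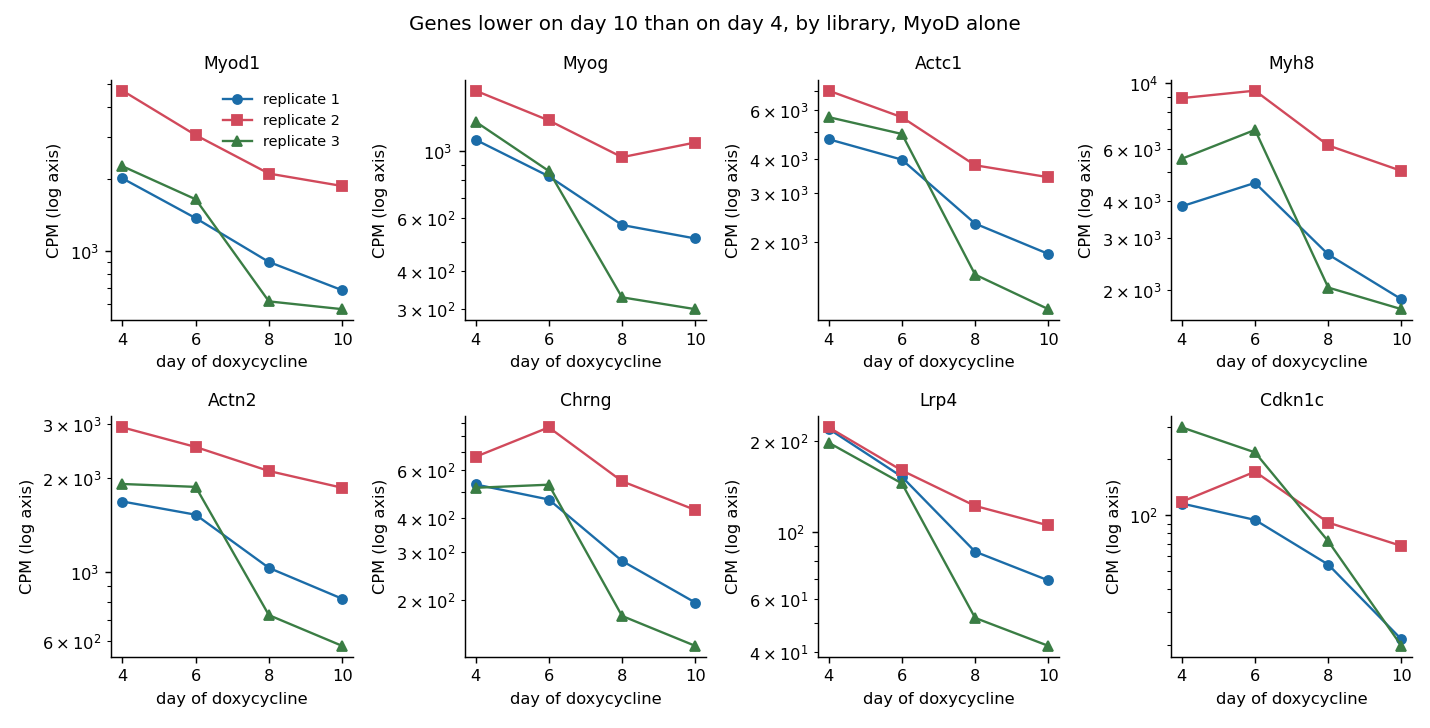
CPM on a log axis of 8 genes called lower on day 10 than on day 4, in each library by day, with 1 line per replicate. Myod1 goes from 2014, 4693 and 2264 CPM to 685, 1871 and 570.4 CPM, and the largest fitted step of all 8 genes lies between days 6 and 8.

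Within gene families the makeup moved while the total fell. These shares are of summed TPM, which adjusts for transcript length, and are a description without a test. Acta1, the adult skeletal alpha-actin, made up 63.6, 64.8 and 54.1% of Acta1 plus Actc1 in replicates 1, 2 and 3 on day 4 and 70.2, 73.7 and 66.1% on day 10, so the fetal form gave up part of its share in each replicate. Tnnt3, the fast skeletal troponin T, went from 22.3, 17.4 and 21.3% of the 3 troponin T genes to 25.8, 25.1 and 31.1%, and Tnnt2 from 43.9, 45.4 and 42.4% to 35.4, 36.9 and 34.0%. On day 6 Tnnt3 stood lower than on day 4, at 16.9, 12.7 and 14.8%. The fast troponin I gene Tnni2 went from 16.4, 15.5 and 20.7% to 20.7, 19.7 and 31.7% of Tnni1 plus Tnni2.

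Among the 8 myosin heavy chains, Myh3 held 58.3, 50.6 and 51.4% of their TPM on day 4 and 61.1, 55.1 and 53.2% on day 10, and Myh8 30.2, 38.7 and 39.4% and 24, 27.6 and 35.9%. The perinatal form thus lost share in all 3 replicates and the embryonic form gained. The adult fast forms Myh1, Myh2 and Myh4 stayed minor: on day 10 their highest shares in any replicate were 0.552%, 0.941% and 1.07%. The slow and cardiac beta form Myh7 held 8.14, 8.65 and 6.14% on day 4 and 11.7, 14.2 and 7.73% on day 10, also more in each replicate. Casq1, the calcium store protein of fast skeletal muscle, went from 1.35, 0.729 and 0.960% to 6.25, 4.17 and 3.78% of Casq1 plus Casq2, and the pump Atp2a2 went from 30.3, 26.4 and 21.3% to 41.0, 39.4 and 35.1% of Atp2a1 plus Atp2a2.

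**Figure D3:**
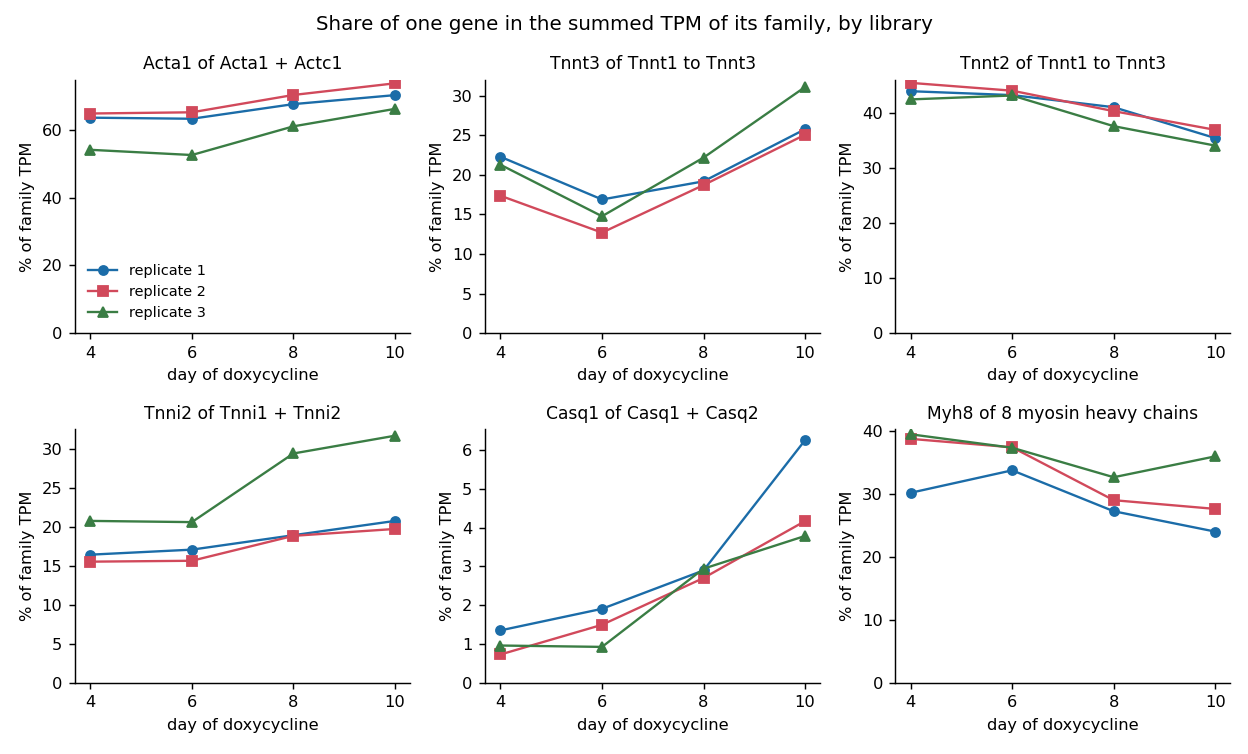
Share of 1 gene in the summed TPM of its family (percent, from 0), in each library by day, with 1 line per replicate. Acta1, Tnnt3, Tnni2 and Casq1 hold more of their family on day 10 than on day 4 in every replicate, and Tnnt2 and Myh8 hold less.

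Genes of the sarcomere scaffold changed in both directions. Of 33 scaffold genes tested, 6 rose (Xirp2, Mybpc2, Ankrd2, Nrap, Myot and Csrp3) and 3 fell (Actn2, Mybph and Lmod3), with a median of -0.17. Xirp2 (chromosome 2, 67446002 to 67526614), an actin-binding protein of myotendinous and intercalated junctions, had the largest rise among the genes that moved the same way in all 3 pairs and reached a mean of 5 CPM. It went from 13.4, 12.6 and 2.78 CPM on day 4 to 20.4, 44.5 and 6.27 on day 6, 78.5, 225 and 9.23 on day 8 and 237, 685 and 39.3 on day 10 (log2 change 4.65 with SE 0.42, adjusted p 0.00016). It was higher at each step in each replicate, from unequal levels: replicate 3 ended near the level that replicate 2 had on day 6. Ankrd2 (chromosome 19, 42036000 to 42045110), a stretch-responsive protein that binds titin, went from 10.9, 26.2 and 15.4 CPM to 149, 371 and 115 CPM (log2 change 3.51 with SE 0.25, adjusted p 8.8e-05), without overlap. Ankrd23, of the same protein family, rose from 97.8, 172 and 281 CPM on day 4 to 344, 769.8 and 324 CPM on day 10, and stood at 245, 433 and 551 CPM on day 6, a step that was not called (day 10 against day 4: log2 change 1.39 with SE 0.35, adjusted p 0.015). Ankrd23 was not called without replicate 1 (1.18) or without replicate 2 (0.997). The third member, Ankrd1, went from 363, 300.2 and 253 to 583, 1007 and 209 CPM and was not called (adjusted p 0.084).

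Nrap, a scaffold of forming myofibrils, went from 134, 163 and 72.3 CPM to 266, 665 and 128 CPM (log2 change 1.28 with SE 0.23, adjusted p 0.0036). Csrp3, a LIM protein of the Z-disc (log2 fold change 1.07, SE 0.13), and Myot, the Z-disc protein myotilin (1.14, SE 0.13), rose. They were higher on day 10 in all 3 pairs although the groups overlapped. Mybpc2, the fast form of myosin-binding protein C, was near the detection limit on day 4, with at most 4 reads in a library, and stood at 1.67, 2.43 and 2.05 CPM on day 10 (adjusted p 0.00085). Hspb8, a small heat shock protein that helps clear damaged sarcomere proteins, rose from 133, 134 and 67.1 CPM to 276, 624 and 158 CPM (log2 change 1.51 with SE 0.20, adjusted p 0.00075). Actn2, the muscle alpha-actinin that crosslinks actin at the Z-disc, fell from 1685, 2918 and 1918 to 819.7, 1865 and 578 CPM (log2 change -1.13 with SE 0.22, adjusted p 0.0055), and so did Mybph (-1.11, SE 0.17) and the actin nucleator Lmod3 (-1.07, SE 0.16). Ttn, Neb and Des, the giant filament proteins titin and nebulin and the intermediate filament desmin, had estimates of -0.99, -0.23 and -0.31 and were not called.

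Myl2, the slow and ventricular light chain, rose by the test but not evenly. It had 0.371, 0.230 and 0.330 CPM on day 4 and 4.57, 20.1 and 0.479 CPM on day 10 (log2 change 4.12 with SE 0.86, adjusted p 0.0068), so that replicate 3 hardly moved and replicate 2 gained most. It was not called without replicate 1 (adjusted p 0.072) or without replicate 2 (log2 fold change 2.53, adjusted p 0.086). Without replicate 2, Nrap and Csrp3 were not called either (0.92 and 0.96), while the other 4 scaffold genes that rose were.

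**Figure D4:**
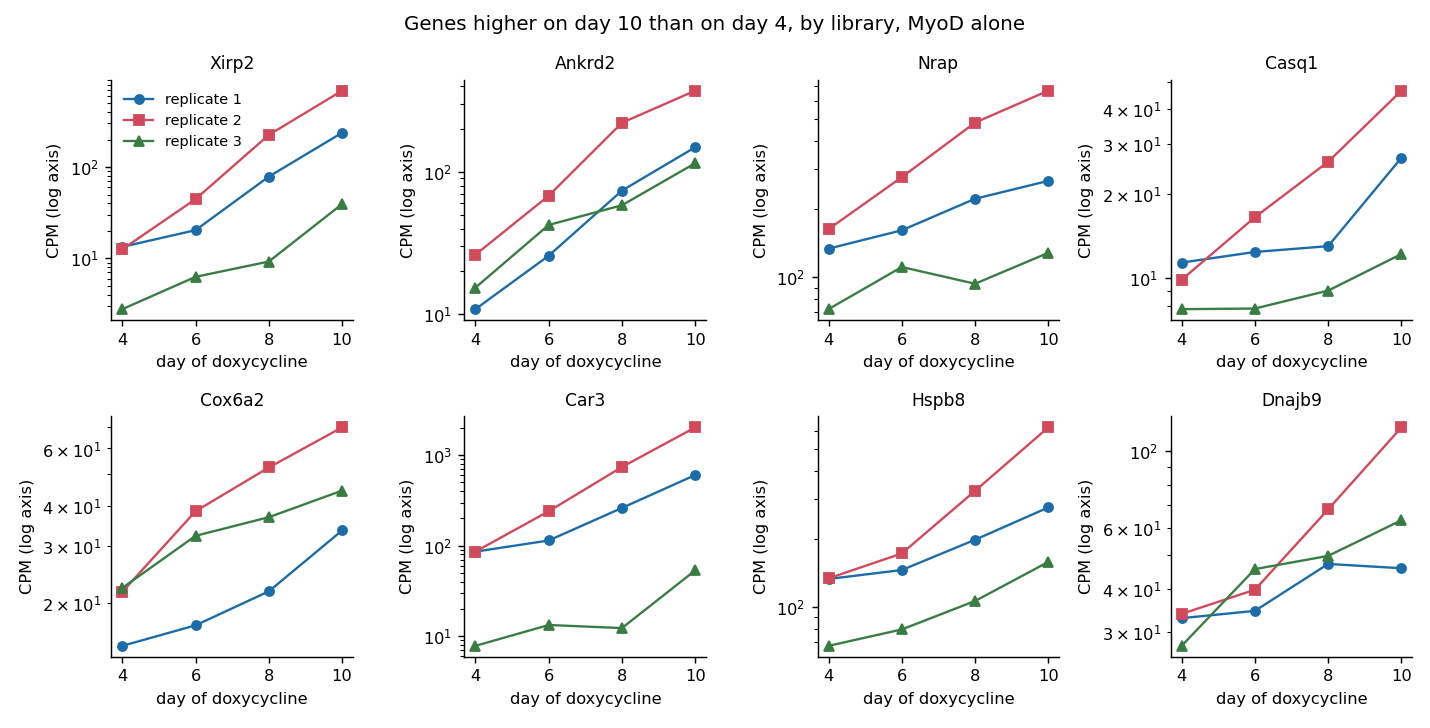
CPM on a log axis of 8 genes called higher on day 10 than on day 4, in each library by day, with 1 line per replicate. Xirp2 climbs from 2.78 to 13.4 CPM on day 4 to 39.3 to 685 CPM on day 10; replicate 3 is the lowest in Xirp2, Nrap, Casq1, Car3 and Hspb8 on every day.

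The bases before the start of 4 genes are shown because genes with the same type of motif moved in opposite directions: Chrna1 and Ankrd2 carry E-boxes, Myh8 and Xirp2 a MEF2 motif, and 1 gene of each pair fell and the other rose. The sequences are the 250 bases before the RefSeq start in GRCm38.p6, read 5′ to 3′ on the strand of the gene, with motif matches in capitals. The windows are chr2:73580339-73580588 on the minus strand, chr11:67276874-67277123 on the plus strand, chr2:67445752-67446001 on the plus strand and chr19:42035777-42036026 on the plus strand.
Chrna1: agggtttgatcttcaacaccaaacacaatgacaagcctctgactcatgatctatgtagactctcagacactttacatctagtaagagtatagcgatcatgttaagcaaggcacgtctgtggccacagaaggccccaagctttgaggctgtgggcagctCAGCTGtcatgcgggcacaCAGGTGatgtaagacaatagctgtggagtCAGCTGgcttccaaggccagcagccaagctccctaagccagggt
Myh8: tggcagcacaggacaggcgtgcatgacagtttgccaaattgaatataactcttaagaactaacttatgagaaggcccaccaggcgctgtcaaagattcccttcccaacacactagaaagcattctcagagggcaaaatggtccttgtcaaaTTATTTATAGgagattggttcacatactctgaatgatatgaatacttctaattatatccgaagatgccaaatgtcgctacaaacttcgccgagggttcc
Xirp2: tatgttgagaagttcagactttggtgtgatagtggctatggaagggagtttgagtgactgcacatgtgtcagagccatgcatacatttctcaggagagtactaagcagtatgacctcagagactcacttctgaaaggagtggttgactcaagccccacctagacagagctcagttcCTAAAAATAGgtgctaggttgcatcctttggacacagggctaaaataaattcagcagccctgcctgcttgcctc
Ankrd2: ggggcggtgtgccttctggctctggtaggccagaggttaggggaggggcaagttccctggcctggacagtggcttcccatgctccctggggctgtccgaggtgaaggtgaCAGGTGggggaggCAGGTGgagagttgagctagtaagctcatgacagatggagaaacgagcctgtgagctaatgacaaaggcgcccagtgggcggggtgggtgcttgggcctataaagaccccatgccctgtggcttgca
The motifs searched on both strands were CAGCTG, which reads the same on either strand, and CAGGTG, the E-box cores most often bound by MyoD, and the MEF2 motif. In Chrna1 the matches begin 92, 73 and 44 bases before the start. They begin at 99 bases in Myh8, 74 in Xirp2, and 140 and 127 in Ankrd2. A match is a description of the letters and not of binding.

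Such windows were found for 11298 of the 15206 genes tested. CAGCTG was present in 12.2% of them, in 22.0% of the 391 windows of genes that fell and in 16.0% of the 539 of genes that rose. CAGGTG was present in 15.1% of all windows, 21.5% of those that fell and 20.8% of those that rose. The MEF2 motif was present in 1.79%, 1.53% and 2.41%. The 62 windows of the contractile and excitation genes, chosen as muscle genes whatever their change, held CAGCTG in 38.7%, CAGGTG in 24.2% and the MEF2 motif in 17.7%.

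Genes of excitation and calcium release, which couple the action potential to contraction, were called in both directions as well. Of 26 tested, 4 rose (Casq1, Trdn, Kcnj2 and Kcnj11) and 2 fell (Sln and Clcn1), and the median was -0.46. With no minimum fold change 5 of the 26 were higher and 14 lower, against 16.6% and 15.9% of all genes tested. Trdn, triadin, which anchors calsequestrin at the calcium release channel, went from 11.5, 22.9 and 6.40 CPM to 35.8, 107 and 17.3 CPM (log2 change 1.80 with SE 0.26, adjusted p 0.0013). Casq1 went from 11.4, 9.89 and 7.77 CPM to 26.9, 46.6 and 12.2 CPM (log2 change 1.38 with SE 0.25, adjusted p 0.0033). Replicate 2 was the highest in both genes on day 10, and only in Casq1 did the groups not overlap.

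The potassium channels Kcnj2, which sets the resting potential, and Kcnj11, the pore of the ATP-sensitive channel, rose from 8.66, 14.8 and 5.51 to 19.1, 31.3 and 20.7 CPM and from 7.21, 14.02 and 15.2 to 22.6, 50.8 and 19.8 CPM (adjusted p 0.0013 and 0.0082 in edgeR's test). Sln, sarcolipin, an inhibitor of the calcium pump, fell from 12.9, 21.2 and 13.0 to 5.13, 9.16 and 4.47 CPM (log2 change -1.36 with SE 0.15, adjusted p 0.00037), and Clcn1, the muscle chloride channel, fell by 1.51 on the log2 scale (SE 0.27). The release channel Ryr1 (-0.73), the voltage sensor Cacna1s (-0.83) and the fast calcium pump Atp2a1 (-0.70) had lower estimates with adjusted p of 0.017, 0.019 and 0.013 but did not reach the minimum fold change. Casq1 and Kcnj11 were not called without replicate 2 (0.97 and 1.01), nor Kcnj11 without replicate 1 (1.15).

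Of 24 genes of muscle energy metabolism, 3 rose (Cox6a2, Cpt1b and Fbp2) and 3 fell (Ckmt2, Mb and Pygm), with a median of -0.44. Over all genes tested 5.23% rose and 3.64% fell. With no minimum fold change 4 of the 24 were higher and 11 lower, against 16.6% and 15.9% of all genes tested. Cox6a2, the muscle form of a cytochrome oxidase subunit, went from 14.8, 21.7 and 22.3 CPM to 33.5, 69.7 and 44.5 CPM (log2 change 1.29 with SE 0.14, adjusted p 0.00036), without overlap. Cpt1b, which imports fatty acids into mitochondria, went from 3.17, 3.77 and 0 to 6.11, 26.4 and 2.88 CPM (log2 change 2.24 with SE 0.50, adjusted p 0.0087), with replicate 2 far above the others. Fbp2, the muscle fructose bisphosphatase, had at most 3 reads per library on day 4 and 1.75, 0.916 and 1.57 CPM on day 10 (adjusted p 0.0025). Ckmt2, the mitochondrial creatine kinase of the sarcomere, fell from 18.2, 50.1 and 8.85 to 1.71, 13.1 and 1.25 CPM (log2 change -2.57 with SE 0.28, adjusted p 0.00038). Mb, myoglobin, fell from 171, 254 and 130.1 to 76.3, 201 and 30.5 CPM (log2 change -1.15 with SE 0.27, adjusted p 0.011), and Pygm, the muscle glycogen phosphorylase, by 1.04 (SE 0.13). Mb and Pygm were not called without replicate 1 or without replicate 3 (-0.98 to -0.73 without replicate 3), and Cpt1b was not called without replicate 2 (1.90).

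Genes for cell fusion and for contact with the nerve fell where they were called. Of 17 fusion and membrane repair genes tested, 4 fell (Mymx, Jam3, Cdh15 and Ncam1), against 3.64% of all genes tested, and none rose (median -0.38). With no minimum fold change 3 of the 17 were higher and 8 lower, against 16.6% and 15.9% of all genes tested. Mymx, the small fusion protein myomixer, went from 88.7, 102 and 114 CPM to 42.1, 62.1 and 38.8 CPM (log2 change -1.13 with SE 0.14, adjusted p 0.00072), without overlap. Its partner Mymk, myomaker, went from 1046, 1645 and 1111 to 523, 1103 and 428 CPM, lower in all 3 pairs, and its log2 fold change of -0.98 (SE 0.18, adjusted p 0.0035) lay just inside the minimum of 1. Jam3, an adhesion molecule of fusing cells, fell from 158, 191 and 228 to 74.3, 74.1 and 50.7 CPM (log2 change -1.54 with SE 0.18, adjusted p 0.00051). Cdh15, the muscle cadherin (-1.04, SE 0.17), and Ncam1, the neural adhesion molecule of young fibers (-1.26, SE 0.21), fell without overlap.

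Of 13 genes of the acetylcholine receptor and synapse, 4 fell (Chrna1, Chrng, Dok7 and Lrp4), against 3.64% of all genes tested, and none rose (median -0.46). With no minimum fold change 1 of the 13 was higher and 6 were lower, against 16.6% and 15.9% of all genes tested. Chrng, the fetal gamma subunit, went from 533, 673 and 518 CPM on day 4 and 469, 864 and 532 CPM on day 6 to 196, 429 and 136 CPM on day 10 (log2 change -1.35 with SE 0.23, adjusted p 0.0027). The adult epsilon subunit Chrne, which replaces it at the mature synapse, had at most 1 read in any of the 12 libraries, so no switch between them was detectable. Chrna1, the shared alpha subunit, fell from 897, 1207 and 914 to 383, 980.1 and 306 CPM (log2 change -1.03 with SE 0.23, adjusted p 0.01). Lrp4, the agrin receptor, fell from 219.9, 222 and 198 to 69.2, 105 and 42.1 CPM (log2 change -1.65 with SE 0.22, adjusted p 0.00084), and Dok7, the activator of the kinase Musk, by 1.12 (SE 0.20). Chrnd (-0.22), Chrnb1 (-0.43) and Musk (-0.19) were not called. Without replicate 3, Chrna1 and Dok7 (-0.76 and -0.84) and Cdh15, Mymx and Ncam1 (-0.98 to -0.88) were not called. Without replicate 1, Chrna1, Chrng, Dok7 and Cdh15 were not called (-0.93, -1.31, -1.13 and -1.01).

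Genes of muscle breakdown and of cell death were called at about the share of all genes tested (5.23% higher, 3.64% lower). Of 26 muscle wasting and autophagy genes, none rose and 1 fell (median 0.00). With no minimum fold change 3 of them were higher and 8 lower, against 16.6% and 15.9% of all genes tested. The 1 that fell was Foxo1, a driver of atrophy genes, from 80.5, 83.6 and 75.5 to 33.5, 42.5 and 25.6 CPM (log2 change -1.27 with SE 0.13, adjusted p 0.00028). The genes Fbxo32 and Trim63, the ubiquitin ligases atrogin-1 and MuRF1, had estimates of -0.17 (SE 0.14) and -0.45 (SE 0.19) and were not called. Of 26 p53 targets and apoptosis genes, 1 rose, the gene Fas, and none fell (median 0.17). With no minimum fold change 9 were higher and 2 lower, against the same 16.6% and 15.9% of all genes tested. Fas, a death receptor, went from 4.45, 2.25 and 2.02 to 9.36, 5.18 and 7.16 CPM (log2 change 1.35 with SE 0.17, adjusted p 0.00067). Cdkn1a, the cell cycle inhibitor p21, had -0.45 (SE 0.10, adjusted p 0.0072).

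Of 24 genes of the integrated and endoplasmic reticulum (ER) stress responses tested, 6 rose, against 5.23% of all genes tested, none fell, and the median was 0.42. Dnajb9, an ER chaperone, went from 32.9, 33.9 and 27.4 CPM to 45.9, 117 and 63.2 CPM (log2 change 1.18 with SE 0.22, adjusted p 0.0043), with the largest gain in replicate 2. Atf3, a stress transcription factor, went from 4.04, 2.58 and 3.81 to 7.48, 21.9 and 7.09 CPM (log2 change 1.57 with SE 0.38, adjusted p 0.013), also with replicate 2 far above the others. The cytokine Gdf15 went from 0.907, 0.276 and 1.41 to 1.71, 3.62 and 5.34 CPM and the heat shock gene Hspa1a from 2.14, 1.47 and 1.13 to 5.64, 9.07 and 5.94 CPM (adjusted p 0.0057 and 0.0019). Hspa1a and its near-identical neighbor Hspa1b (1.33) share reads that the deposited counts divide between them, so each is uncertain alone. The oxidative stress gene Nqo1 also rose (1.07, SE 0.17). The main ER chaperone Hspa5 had 0.50 and Ddit3 (CHOP) 0.76, with adjusted p of 0.014 and 0.0026 and less than the minimum fold. Without replicate 2, Atf3, Dnajb9 and Nqo1 were not called (0.80 to 0.90), nor was Atf3 without replicate 1 (1.91).

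The labels describe no sort of these cultures. The names of the deposited data of the MyoD-alone libraries contain Thy1, which the labels do not explain, so whether cells were sorted is not known here. Transcripts of other cell types were followed with marker lists. Of 29 fibroblast and matrix genes tested, 4 rose (Col6a1, Col6a3, Lum and Dcn), none fell, and 27 estimates were above 0 (median 0.57). The summed level of the list was 38771, 21228 and 35121 CPM on day 4 and 48656, 22638 and 38158 CPM on day 10. It was higher on day 10 in each pair, by little in replicates 2 and 3, and replicate 2 was lowest on both days. Col6a1, a chain of collagen VI, went from 80.3, 37.7 and 139.9 to 203, 51.7 and 312 CPM (log2 change 1.01 with SE 0.17, adjusted p 0.0023). Fn1, fibronectin, which drew the most reads of the list, had 0.09 (SE 0.13), and the fibrillar collagens Col1a1 and Col1a2 had 0.20 and 0.18. None of these 3 was called.

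The proteoglycans Lum and Dcn rose mostly in replicate 3, where Dcn went from 3.63 to 25.5 CPM and Lum from 0.141 to 6.65 CPM, while Dcn in replicate 2 stood at 0.690 and 0.321 CPM. Without replicate 3 Dcn had a log2 fold change of 0.53 (adjusted p 0.61), and Lum was too low to be tested. None of the 4 matrix genes was called without replicate 1, where Col6a1 and Col6a3 had 0.82 and 0.61, or, of the 3 that could then be tested, without replicate 3.

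Proliferation genes did not pass the test: 0 of 24 were called by edgeR, 5 of them had an adjusted p under 0.05 below the minimum fold, and all 24 estimates were above 0 (median 0.52). Under the alternatives listed in the closing section, 0 to 9 were called higher. The summed level was 453, 243 and 505 CPM on day 4 and 878, 195 and 819.6 CPM on day 10. It was higher on day 10 in replicates 1 and 3 and lower in replicate 2, so the direction was not shared. Mki67, the marker of cycling cells, showed the same pattern, with 33.6, 12.8 and 37.7 CPM on day 4 and 81.7, 6.83 and 65.8 CPM on day 10 (log2 fold change 0.55, SE 0.32, adjusted p 0.22). In the same replicates 1 and 3 the genes for troponins, tropomyosins and actins had the lowest within-pair changes (median log2 change -0.67 and -1.21, against -0.24 in pair 2). Whether cycling cells that never fused account for these differences was not tested.

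In the inflammatory and senescence secretome, 6 of 17 genes tested rose (Il6, Ccl2, Ccl7, Il1rn, Mmp3 and Cxcl5), 2 fell (Igfbp3 and Igfbp5) and the median was 0.93. The summed level of the list went the other way in each pair, from 5160, 2924 and 3318 CPM on day 4 to 4016, 2349 and 2459 CPM on day 10. Ccl2, a chemokine that attracts monocytes, went from 13.3, 4.74 and 14.9 CPM to 24.4, 8.11 and 139 CPM (log2 change 1.71 with SE 0.44, adjusted p 0.017). Il6 went from 2.97, 0.782 and 0.424 to 6.80, 1.83 and 7.57 CPM (log2 change 2.07 with SE 0.49, adjusted p 0.011). The gain in Ccl2, Ccl7, Mmp3 and Cxcl5 was mostly that of replicate 3, where Mmp3, a matrix protease, reached 52.1 CPM and Cxcl5 47.9 CPM, against at most 2.70 and 0.0458 CPM in the others. Without replicate 3, Ccl2 and Ccl7 had 0.83 and 0.83 and Mmp3 1.09, none called, nor was Il1rn (2.14), and Cxcl5 was too low to be tested. Without replicate 1 Ccl7 and Cxcl5 were not called (2.194 and 6.54), and without replicate 2 Ccl7 and Il1rn were not (2.09 and 1.64). Igfbp5, an insulin-like growth factor binding protein of differentiating muscle, fell from 437, 586 and 349 to 115, 193 and 162 CPM (log2 change -1.54 with SE 0.16, adjusted p 0.00033). Igfbp3 was not called without replicate 1 (-1.24) or without replicate 3 (-0.47).

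Of 13 satellite cell and progenitor genes tested, 2 rose (Vcam1 and Cd34) and 3 fell, among them Heyl and Dll1 (median -0.18). Heyl, a target of Notch signaling in muscle stem cells, went from 14.9, 12.5 and 24.2 CPM to 5.94, 5.54 and 1.21 CPM (log2 change -2.14 with SE 0.50, adjusted p 0.011). Dll1, a Notch ligand, went from 20.2, 16.9 and 17.4 to 3.55, 7.88 and 2.11 CPM (log2 change -2.20 with SE 0.34, adjusted p 0.0017). Both groups were fully separate. Vcam1, an adhesion molecule of satellite cells and fibroblasts, rose from 84.7, 48.5 and 99.7 to 218, 102 and 311 CPM (log2 change 1.36 with SE 0.11, adjusted p 0.0001), and Cd34 rose mainly in replicate 3 (without it 0.41, adjusted p 0.43) and was called in none of the 3 fits that left out 1 replicate. Pax7, the defining gene of this cell type, stayed at or below 4 reads per library.

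Lists of further lineages were read the same way. None of 12 smooth muscle and myofibroblast genes was called by edgeR; 1 had an adjusted p under 0.05 and less than the minimum fold, and 0 or 1 was called under the alternatives. The smooth muscle list summed to 8381, 7194 and 7659 CPM on day 4 and 10443, 6417 and 5295 CPM on day 10. Of 12 macrophage genes 6 passed the filter and Fcer1g rose, to 3.16, 6.596 and 2.01 CPM, while the defining genes Ptprc and Adgre1 had at most 15 and 2 reads per library and the list summed to 44.2 to 61.6 CPM on day 10. Of 12 adipocyte genes 7 passed the filter and Pparg, Fabp4 and Car3 rose, with the list at 220.1, 292 and 164 CPM on day 4 and 755, 2292 and 171 CPM on day 10. Car3 alone held 85.9, 86.1 and 7.82 CPM of these sums on day 4 and 604, 2032 and 53.4 CPM on day 10. The rise of the sum in replicates 1 and 2 was therefore mostly that of Car3. Adipoq and Plin1, defining genes of fat cells, had at most 10 and 68 reads in a library. Emcn rose among 5 endothelial genes tested, with the list at 8.34 to 10.2 CPM on day 10 and the defining genes Cldn5 and Tie1 at no more than 2 reads. Nefm rose among 6 neural genes tested and Cldn4 fell among 2 epithelial ones. Pparg was not called without replicate 1 (0.98), Emcn without replicate 1 or 2 (1.28 and 0.75), Nefm without replicate 2 or 3 (0.86 and 0.97), and Cldn4 without replicate 1 or 3. The bone and cartilage list summed to 537, 326 and 561 CPM on day 4 and 986, 567 and 2189.9 CPM on day 10. In it 1 of 9 rose, Spp1, the secreted matrix protein osteopontin, from 379.8, 222 and 457 CPM to 740.1, 462 and 2084 CPM (log2 change 1.39 with SE 0.26, adjusted p 0.0038).

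Car3, carbonic anhydrase 3, is an adipocyte marker that slow muscle fibers also express, and it had the largest rise in CPM among the genes called. It went from 85.9, 86.1 and 7.82 CPM on day 4 to 114, 240.1 and 13.3 on day 6, 261, 741 and 12.3 on day 8 and 604, 2032 and 53.4 on day 10 (log2 change 3.37 with SE 0.41, adjusted p 0.00053). Replicate 2 rose most and replicate 3 stayed below the day 4 level of the others. Timp3, an inhibitor of matrix proteases, rose from 226, 82.1 and 56.3 to 568, 260.1 and 131 CPM (log2 change 1.40 with SE 0.11, adjusted p 0.0001).

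Other large rises named by the rule were those of Vat1l, Tspan13, Agtr2, Serpina3g, Hapln4, Ror1 and Atp1b4. Tspan13, a membrane tetraspanin, went from 1.94, 2.48 and 2.50 to 27.6, 74.9 and 32.5 CPM (log2 change 4.17 with SE 0.27, adjusted p 5.2e-05). Atp1b4, a muscle protein related to the sodium pump beta subunits, went from 2.31, 6.39 and 1.27 to 23.2, 51.8 and 19.4 CPM (log2 change 3.33 with SE 0.25, adjusted p 8.8e-05). Hapln4, a hyaluronan link protein, rose by 3.58 (SE 0.31) on the log2 scale. In these 3 genes and in Vat1l (4.46, SE 0.27) every day 10 library lay above every day 4 library. Agtr2, the type 2 angiotensin receptor, which had a mean of 201 TPM in untreated MEFs and 14.3 TPM on day 10, rose mostly in replicate 3, from 0.577, 0.184 and 1.51 to 2.14, 0.916 and 53.1 CPM, with 1.99 without that replicate against 3.85 with it. Ror1, an orphan receptor kinase, rose mostly in replicate 1, from 0.536, 0.0920 and 0.565 to 20.3, 0.458 and 1.15 CPM, and was not called without it (1.32).

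The 12 largest falls named by the rule were Myo5b, Tnfrsf13c, Elobl, Sost, Dbh, Slc6a16, Stum, Ddn, Sel1l3, Ckmt2, Ramp1 and Cdcp1, and all were still called whichever replicate was left out. Myo5b, a motor of vesicle transport, went from 44.4, 97.3 and 51.8 CPM on day 4 to 6.70, 25.3 and 4.25 on day 8 and 3.63, 12.6 and 1.28 on day 10 (log2 change -3.79 with SE 0.42, adjusted p 0.00037). Dbh, dopamine beta-hydroxylase, went from 34.3, 72.2 and 20.6 to 4.10, 6.73 and 2.78 CPM with the smallest SE of the 12 (log2 change -3.14 with SE 0.13, adjusted p 8.1e-06). Ramp1, a partner of the receptor for the neuropeptide CGRP, went from 115, 258 and 128 to 25.3, 43.0 and 17.4 CPM (log2 change -2.55 with SE 0.17, adjusted p 5.7e-05), and Stum, a membrane protein, from 135, 194 and 187 to 23.1, 45.2 and 11.7 CPM (log2 change -2.86 with SE 0.32, adjusted p 0.00039). These 4 were separate between days in all libraries. Tnfrsf13c, a receptor of the tumor necrosis factor family (-3.52), and Sost, the Wnt inhibitor sclerostin (-3.25), also fell, Sost from 56.8, 50.2 and 2.68 CPM, so that its day 4 level in replicate 3 was below that of replicates 1 and 2 on day 10. Nes, nestin, an intermediate filament of young muscle, fell from 1995, 2392 and 2223 to 933, 1080.0 and 502 CPM (log2 change -1.46 with SE 0.22, adjusted p 0.0014).

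The changes were also tested step by step. From day 4 to day 6, 24 genes were called (0.158%), 22 higher and 2 lower. From day 6 to day 8 it was 186 (1.22%), 65 higher and 121 lower, and from day 8 to day 10 it was 0 (0%) with edgeR, with 1229 genes at an unadjusted p under 0.05 and 8 called by DESeq2. Over the 553 genes that fell from day 4 to day 10, the median log2 change was -0.27, -0.85 and -0.38 in the 3 steps, and over the 795 that rose it was 0.48, 0.65 and 0.39. These medians describe genes chosen by the sum of the steps. Estimates had 1 sign at every step in 372 of the 553 and 601 of the 795.

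Among the genes named here, Elobl fell and Ryr3 and Tspan13 rose from day 4 to day 6. Ryr3, the ryanodine receptor of embryonic muscle, went from 10.8, 13.2 and 9.70 to 25.8, 32.6 and 25.6 CPM and returned to 7.48, 10.4 and 7.80 CPM by day 10, a peak seen in all 3 replicates (log2 change 1.32 from day 4 to day 6 and -1.12 from day 6 to day 8, both called). From day 6 to day 8, Actc1 (-1.02), Myh8 (-1.07), Clcn1 (-1.76) and Ckmt2 (-1.81) fell and Xirp2 (1.75), Ankrd2 (1.23), Atp1b4 (1.65) and Hspa1a (1.55) rose. The step counts depend on the replicates: without the block both the first and the second step gave 0 calls, and leaving out 1 replicate at a time gave 0 to 35 for the first and 0 to 47 for the second. With the block and only the libraries of the days compared, the 3 steps gave 119, 0 and 22 calls, so the order of the steps by count is not stable.

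MyoD with F/R/C was sampled on the same days. The difference in the change from day 4 to day 10 between the arms was tested as an interaction over 24 libraries with the replicate block. Of 16440 genes, 2239 (13.6%) were called, 1321 (8.04%) whose change was more positive in MyoD alone and 918 (5.58%) whose change was more negative. Within the F/R/C arm 2299 genes (14%) were called between days 4 and 10, 8.3% of genes tested higher and 5.69% lower. The count ranged from 626 without replicate 2 to 2916 without replicate 3, with 727 without replicate 1, and was 1124 without the block.

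For the contractile lists other than the scaffold, genes whose change differed between the arms are set against 13.6% of all genes tested. With 8 to 12 genes in a list, such small counts are not read as a result. None of the 12 troponins, tropomyosins and actins differed in its change by edgeR's test, and the median of the list was -0.64 in MyoD alone and -0.71 with F/R/C. For the 8 myosin heavy chains the medians were -0.79 and -0.74, and 1 differed, Myh1 (difference 1.89, SE 0.50). For the 8 myosin light chains and their kinases the medians were -0.36 and -0.14, and 1 differed, the kinase Mylk4 (difference -1.13, SE 0.40). A call missed does not show that the changes were equal: for Acta1 the difference was 0.26 (SE 0.54) and for Actc1 -0.94 (SE 0.35).

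Of the 6 scaffold genes that rose with MyoD alone, 3 differed in their change from the F/R/C arm (Xirp2, Ankrd2 and Nrap) and 3 were not called different (Mybpc2, Myot and Csrp3). Of all 33 scaffold genes 8 had a more positive change in MyoD alone (Xirp2, Ankrd2, Nrap, Ankrd1, Smpx, Xirp1, Actn3 and Cryab) and 1 a more negative one (Igfn1). For Xirp2 the change was 4.76 in MyoD alone and -1.39 with F/R/C in the fit of both arms (difference 6.15, SE 0.99, adjusted p 0.00045). For Ankrd2 it was 3.52 and -0.51 (difference 4.03, SE 0.44, adjusted p 2.4e-05), and for Hspb8 1.61 and -1.53 (difference 3.14, SE 0.55). Of the excitation genes 5 were more positive in MyoD alone, among them Trdn (2.45), Casq1 (2.87) and Kcnj2 (2.18), and 2 were more negative, Ryr3 (-2.36) and Sln (-2.37).

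Of 16 myogenic regulators 4 had a more negative change in MyoD alone, Myod1 (-1.17, SE 0.37), Myog (-1.36, SE 0.37), Pitx3 (-3.03) and Tead4 (-1.01). Myf6 had a more positive one. The medians of this list were close, at -0.29 in MyoD alone and -0.24 with F/R/C. Myog had a change of 0.17 with F/R/C. Stress and stromal lists also differed. Of 24 stress genes 12 were more positive in MyoD alone, with medians of 0.42 and -0.65 in the respective arms, for example Dnajb9 (difference 2.57, SE 0.45) and Sdf2l1 (2.67, SE 0.44). Of 29 fibroblast and matrix genes 14 were, with medians of 0.57 and -0.52, and of 17 secretome genes 10 (and 2 more negative, Mmp9 and Igfbp3), with 0.93 and -1.34. None of the stress or fibroblast genes was called in the opposite direction. Of 13 progenitor genes 6 were more negative in MyoD alone and 2 more positive (Vcam1 and Cd34), with medians of -0.18 and 0.92, the more negative ones including Heyl (-3.25, SE 0.78) and Dll1 (-3.12, SE 0.46). The arms hold different mixtures of cells by their labels, and the part of that in these differences was not tested.

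**Figure D5:**
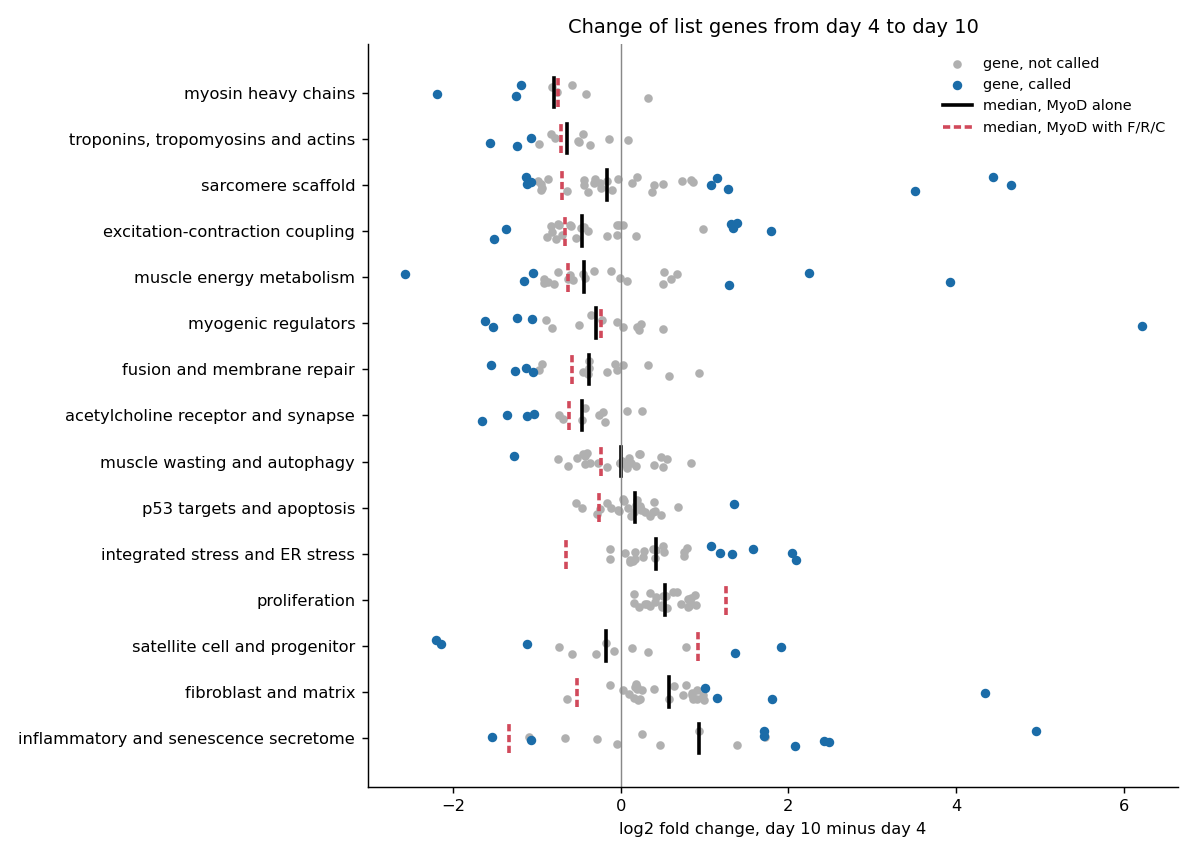
Log2 fold change from day 4 to day 10 with MyoD alone for every tested gene of 15 lists (points, blue where called), with the median of each list for MyoD alone (black bar) and for MyoD with F/R/C (red dashed bar). The medians lie close together for the myosin heavy chains (-0.79 and -0.74) and for the troponins, tropomyosins and actins (-0.64 and -0.71), and part in the scaffold list (-0.17 and -0.70), the stress list (0.42 and -0.65), the fibroblast list (0.57 and -0.52) and the secretome (0.93 and -1.34); the point farthest right is Myf6, whose day 4 libraries held at most 1 read.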

How the data were processed

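The data are bulk RNA-seq libraries (poly-A selected, stranded, 100-base single-end reads from a NovaSeq, per the labels' protocols). The authors deposited, for each library, the estimated counts and TPM of each transcript. The submitters' processing notes name bcl2fastq 2.19, Trimmomatic 0.36, kallisto 0.44, edgeR 3.28 and the build GRCm38.p6. Their settings are not given in the sources used here.

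Of 121843 transcripts, 121104 were matched by identifier to the GENCODE annotation of GRCm38, which left 99.4 to 99.7% of each library's reads. The expected counts, as deposited by the authors, were added up per gene, for 35675 genes, and rounded. Reads shared between similar genes are divided by the estimation, and 815 of the 1348 genes called from day 4 to day 10 held such divided reads in some library. The deposited TPM were summed the same way and used for levels per length, with log2(TPM + 0.5) in 1 alternative.

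The 12 MyoD-alone libraries were fitted with edgeR 4.0.16 in R 4.3.3 (TMM, its expression filter, quasi-likelihood test, replicate number as a block, 6 residual degrees of freedom, 15206 genes). A call needed an adjusted p (Benjamini-Hochberg) under 0.05 and at least a 2-fold change in either direction. The arms were compared in 24 libraries (14 residual degrees of freedom). DESeq2 1.42.0 and limma 3.58.1 were alternatives. The rule of this report pairs libraries by replicate number. In all 18 same-numbered pairs of libraries deviations from the day means correlated (lowest r 0.408). In data simulated for day 10 against day 4, 40% of 200 genes changed 2-fold and 92.5% of 200 genes changed 4-fold were called, among 15035 and 15032 genes. Genes changed 2-fold sit at the minimum fold of the call (median log2 estimate 1.00), so that minimum itself holds down the first share. The simulation gave each replicate the same shift on all days, while the real changes differed between replicates.

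Genes were named by rule: the 12 largest rises and falls among called protein-coding genes with a mean of at least 5 CPM and 1 direction in all 3 pairs, the 8 largest CPM changes each way, the 5 largest differences between arms each way, and members of 28 gene lists. The members and lists were chosen with earlier results of these data known. A permutation test of 3 against 3 cannot go below p = 0.1 and was not used. Some genes are not reported here.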

Additional observations from a re-analysis of the deposited data

Results flagged for a closer look

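The change from day 4 to day 10 differed between MyoD alone and MyoD with F/R/C by a test of the difference itself in 2239 genes. The 5 largest differences in each direction are given as log2 values with their SE from edgeR's interaction test. The change was more positive with MyoD alone for Angptl7, a secreted angiopoietin-like protein (7.59, SE 2.29), the chemokine Cxcl5 (6.76, SE 2.11), Xirp2 (6.15, SE 0.99), Vat1l (5.44, SE 0.51) and Csprs (5.25, SE 1.501). In Angptl7 and Cxcl5 the gain with MyoD alone lay in 1 library, replicate 3 on day 10, at 92.1 and 47.9 CPM against no more than 0.0916 CPM in the other day 10 libraries. Csprs had a change of 0.08 with MyoD alone (adjusted p 0.72), and its difference came from a change of -5.16 with F/R/C. That change lay between means of 0.115 TPM on day 4 and 0 TPM on day 10, so depth limits it. The minimum of 5 CPM for naming was applied to MyoD alone.

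The change was more negative with MyoD alone for Pde2a, a cyclic nucleotide phosphodiesterase (-7.13, SE 1.73), the cartilage matrix protein Cilp (-5.96, SE 0.96), Dbh (-5.55, SE 0.97), the rhomboid-like protein Rhbdl3 (-5.49, SE 0.70) and Capn6, a calpain-like protein (-5.37, SE 0.90). With F/R/C these 5 genes had changes of 4.99, 3.95, 2.33, 3.14 and 4.20. Cilp and Rhbdl3 were low on day 4 with F/R/C, at means of 0.0847 and 0.197 TPM. With MyoD alone, Cilp went from 49.3, 121 and 236 CPM to 32.7, 24.8 and 26.9 CPM, Rhbdl3 from 7.54, 12.2 and 4.90 to 2.31, 1.88 and 0.607 CPM and Capn6 from 66.0, 141 and 37.9 to 25.1, 86.6 and 9.97 CPM, and all 3 fell. Cilp was not called without replicate 2 (-2.00), nor Capn6 without replicate 1 (-1.27). Pde2a was not called there, at 10.9, 6.30 and 30.8 and 8.04, 0.321 and 0.0639 CPM.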

How the results depend on the processing

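The pairing by replicate number changes how many genes are called. Without the replicate block, day 10 against day 4 gave 205 genes (94 higher, 111 lower), each of the first 2 steps gave 0, and the difference between arms gave 1124. All 45 libraries without the block gave 152 (61 higher, 91 lower) and 0 at each of these steps. With the block but only the libraries of the days compared, the counts were 564 (274 higher, 290 lower) for day 10 against day 4, then 119, 0 and 22 for the 3 steps. With the fibroblasts and both arms in 1 fit the first 2 steps gave 3 and 12. With no minimum fold change the counts were 4939 (2520 higher, 2419 lower), 906 for day 8 against day 6 and 4425 for the arms. The deposited TPM in limma gave 808 (513 higher, 295 lower). Without a filter on low counts the first and last step gave 67 and 1, and with DESeq2 87 and 8. Leaving out 1 replicate at a time gave 844 to 1260 genes for day 10 against day 4, 484 to 690 higher and 354 to 570 lower. The first step then gave 0 to 35, the next 0 to 47, the last 0, and the arms 626 to 2916. The cause of these differences was not tested, beyond that fewer samples enter some fits.

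Of the 107 called genes named in the text none changed direction under any alternative that gave a value. Between 103 and 107 were also called with other scaling factors, DESeq2, limma-voom or no filter. With 33 libraries 76 were called, with the deposited TPM 84, and with 45 libraries and no block 24. With the block and only the libraries of the 2 days compared, 67 of the 104 with a value were called. Myog and Actn2, the 2 myotube markers called in the main fit, were not. Genes under about 10 reads in a day 4 library, such as Vat1l, Angptl7 and Cxcl5, have fold changes that depth limits.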

Other observations

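Genes of cell cycle exit, which keep differentiated muscle from dividing, changed in 3 of 16 tested, against 8.86% of all genes tested. Cdkn1c, the inhibitor p57 that muscle cells switch on as they leave the cycle, fell from 115, 118 and 297 CPM on day 4 to 21.4, 68.2 and 19.7 CPM on day 10 (log2 change -2.33 with SE 0.45, adjusted p 0.0049), without overlap. Gas1, a growth arrest protein, fell from 42.1, 48.8 and 58.9 to 8.25, 15.4 and 26.5 CPM (log2 change -1.66 with SE 0.24, adjusted p 0.0012), and Rbl1 (p107), a relative of the retinoblastoma protein, rose from 5.77, 2.71 and 5.79 to 13.6, 4.63 and 12.1 CPM (log2 change 1.05 with SE 0.17, adjusted p 0.0021). The median of the list was 0.15. Cdkn1c and Rbl1 were not called without replicate 1 (-2.29 and 0.94).

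For the lists that follow, the shares of all genes tested were 5.23% called higher and 3.64% called lower. Of 18 cholesterol synthesis genes 1 rose, Dhcr7, from 11.5, 12.7 and 17.3 to 25.0, 42.9 and 30.9 CPM (log2 change 1.23 with SE 0.17, adjusted p 0.001), and the median was 0.11. Without replicate 2 it was 0.98 and not called. Of 17 glycolysis and hypoxia genes 1 fell, the oxygen sensor Egln3, from 182, 169 and 216 to 57.0, 68.1 and 40.7 CPM (log2 change -1.80 with SE 0.19, adjusted p 0.00035), with a median of -0.17. Of 24 interferon response genes 11 passed the filter, with a median of 0.75, and Ifit3 rose, from 0.330, 0.460 and 0.659 to 0.940, 1.51 and 1.60 CPM (adjusted p 0.035 in edgeR's test). It was called in none of the 3 fits that left out 1 replicate. Of 16 TGF-beta target genes Tgfbi rose, mostly in replicate 3, where it went from 6.36 to 42.2 CPM, and without that replicate its log2 fold change was 0.50. The median of these 16 was 0.05, and with no minimum fold change 3 were higher and 5 lower. Their summed level was lower on day 10 in each pair, from 6843, 3898 and 4484 CPM to 6761, 3721 and 2662 CPM.

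The genes called were also set against the untreated MEFs. Of the 553 that fell, 32 (5.79%) had a mean TPM in untreated MEFs above the mean of their day 4 and day 10 levels, against 412 of the 795 that rose (51.8%) and 56.2% of all genes tested. These shares are a description, since genes are not independent samples.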
